A study of Mus musculus with 2 samples.

Results

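Prg4-high fibroblasts of the mouse temporomandibular joint (TMJ) were 65 cell barcodes among the 6681 kept in both libraries. There were 33 among the 2667 kept barcodes of the PBS library and 32 among the 4014 kept barcodes of the CFA library. A barcode was kept when it held at least 500 genes, at most 10% mitochondrial UMIs and at most 1% hemoglobin UMIs, where a UMI (unique molecular identifier) stands for 1 captured mRNA molecule. Members were chosen by their measured UMIs, first of all by Prg4, which had to make up at least 0.2% of a barcode's UMIs with at least 10 UMIs. A member also had to hold under 0.1% of UMIs from the cartilage genes Col2a1, Acan and Hapln1, under 5 UMIs of the tendon genes Tnmd and Thbs4, no Ptprc, which is the gene of the leukocyte surface protein CD45, and under 2 UMIs of the endothelial genes Pecam1 and Cdh5.

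Each library was a single cell 3′ RNA-Seq library of whole TMJ tissue from C57BL/6 mice of genotype WT, labelled 8-10 weeks old. The joints of both sides had received 10 μL of PBS, the control, or of CFA (complete Freund's adjuvant, an oil emulsion of killed mycobacteria) at 5 mg/mL, and were dissected 3 weeks later, after which CD45+ cells were reduced before loading. There was 1 library per condition, so no value has a replicate check, no p-value was computed, and treatment cannot be told apart from any other difference between the preparations. The intervals below are exact 95% intervals that cover counting error only, and cells of 1 library were not treated as replicates.

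Lining fibroblasts form the surface layer of the synovium, the membrane that encloses the joint space, and lie above a looser layer of sublining fibroblasts around blood vessels. They secrete lubricin, the product of Prg4, and hyaluronan, which together make the joint fluid slippery and protect the cartilage surface. In mouse joints lining fibroblasts are known for Prg4 and Clic5 and for low Thy1, whereas sublining fibroblasts carry Thy1 and, in the perivascular adventitia, Pi16 and Dpp4. Interferons act on most cells through STAT transcription factors, which induce genes whose promoters often hold the interferon-stimulated response element (ISRE), the MHC class I antigen presentation machinery among them.

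The Prg4-high fibroblasts fell into a group that held further lining genes and a group that did not. Of 6 other lining genes (Col22a1, Gpr1, Clic5, Htra4, Tspan15 and Hbegf), each member held either 0 to 2 or 4 to 6, and none held 3. In the PBS library 11 of 33 members (33.3%, 17.96 to 51.8) had at least 3 of the 6 genes and are called lining-gene members here, against 2 of 32 (6.25%, 0.766 to 20.8) in the CFA library. The remaining 22 PBS and 30 CFA barcodes are called other members. This split was drawn after the values had been seen, and the 6 genes that made it are not results of it.

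**Figure D1:**
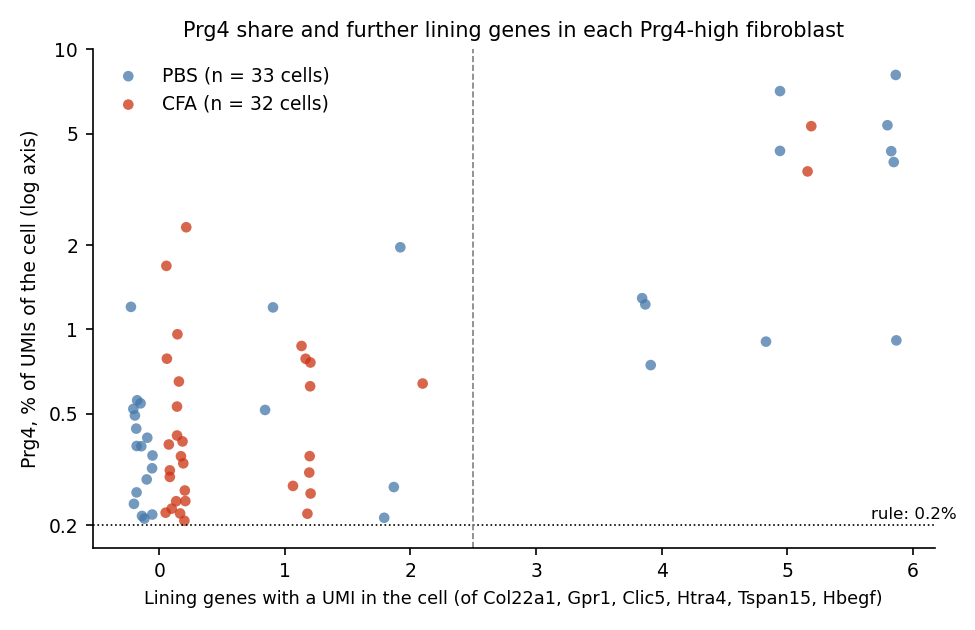
Prg4 as a percentage of each cell's UMIs (log axis) against the number of the 6 further lining genes with a UMI, with 1 point per Prg4-high fibroblast, blue for PBS (33 cells) and red for CFA (32 cells) and a small horizontal jitter. The dotted line marks the 0.2% that chose the members and the dashed line separates the 13 lining-gene members on the right, 11 of them from PBS, from the other members on the left.

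The name lining fibroblast therefore held for a minority of the members, and they are called Prg4-high fibroblasts below. Prg4, which chose them, ranged from 0.211% to 8.10% of UMIs over the PBS members with a median of 0.520%, and from 0.208% to 5.31% over the CFA members with a median of 0.371%. The lining-gene members lay at the upper end, with a median of 3.96% in PBS and 4.49% in CFA, and they carried 76.9% and 58.1% of the members' Prg4 UMIs. None of the 15 PBS and none of the 19 CFA members with under 0.5% Prg4 was a lining-gene member. Just inside the threshold stood members at 0.211% in PBS and 0.208% in CFA, and just outside stood barcodes at 0.191% in PBS and at 0.194% in CFA, beside a CFA barcode at 0.327% with 9 Prg4 UMIs. Free Prg4 RNA was far below the threshold, at 30.7 CPM (UMIs of a gene per 1000000 UMIs, summed over the cells of a group) in PBS and 26.3 CPM in CFA endothelial cells.

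The 2 groups also differed in sublining markers. Thy1 was at 0 in the lining-gene members of both libraries, whereas it had 150 CPM in the other PBS members and 102 CPM in PBS sublining fibroblasts (266 PBS and 209 CFA barcodes with Pdgfra, at least 5 UMIs of Dcn and under 0.05% Prg4). In CFA, Thy1 was at least 2-fold lower than in PBS in the other members and in sublining fibroblasts, each with an interval that left out 1. The highest count in a CFA member was 14 Thy1 UMIs. A count of 0 Thy1 UMIs is limited by the 13 lining-gene members behind it. Pi16, a marker of adventitial fibroblasts, had no UMI in a lining-gene member but was found in 6 of 22 other members in PBS and in 15 of 30 in CFA. Cd55, a complement regulator of the lining layer, had a UMI in all 11 PBS lining-gene members at 1099 CPM and in 14 of 22 other members at 93.0 CPM. Dcn, the proteoglycan decorin of fibroblasts, had UMIs in 32 of 33 PBS and 31 of 32 CFA members, and Pdgfra, a growth factor receptor of fibroblasts, in 29 of each. Part of the other members thus carried Prg4 beside markers of sublining and adventitial fibroblasts. Others had no UMI of Pi16 or Thy1. Among these were PBS members with 31, 15 and 19 UMIs of Chad (chondroadherin) and a CFA member with 57 UMIs of the matrix gene Cilp. The other members were thus a mixed group.

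**Figure D2:**
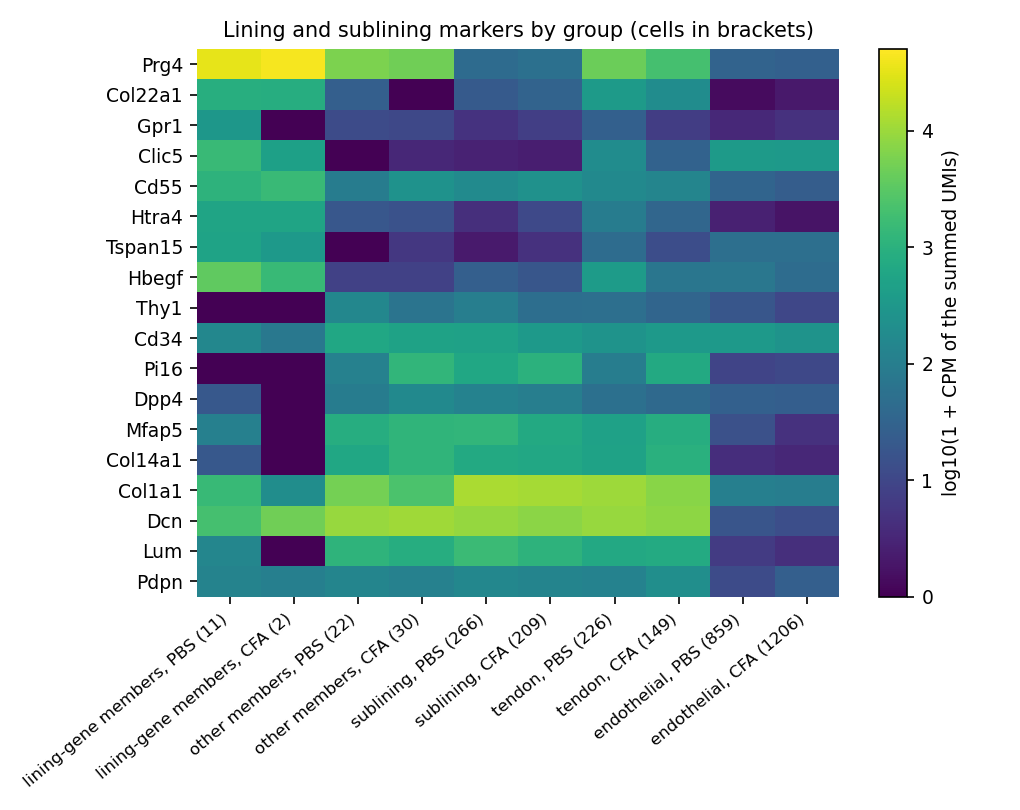
Level of 18 markers (rows) in 10 groups of cells (columns, number of cells in brackets), as log10 of 1 plus the CPM of the summed UMIs, from dark (0) to yellow (high). Clic5, Tspan15 and Hbegf are high in the lining-gene members of both libraries and lower in the other members and sublining fibroblasts, where Hbegf has 7.15 to 25.6 CPM and the other two are under 5 CPM, while Thy1 and Pi16 are at 0 in the lining-gene members.

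Markers of other cells were low when summed over the members, though single members stood higher. Of 7 macrophage markers, 2 were detected in PBS and 4 in CFA members, their sum was 0.00227% of member UMIs in each library, and C1qa, Cd68 and Adgre1 were at 0. Of 7 cartilage markers, 6 were detected in PBS and 3 in CFA, summing to 0.01998% and 0.0249%, with highest cells of 0.399% and 0.428%. The 5 tendon markers, of which the rule limited Tnmd and Thbs4, summed to 0.0236% in PBS and 0.00824% in CFA. The highest PBS member held 0.530% from these tendon markers, against 0.418% over PBS tendon cells. Tendon cells here were all kept barcodes outside the members with at least 5 UMIs of Tnmd and Thbs4 together. Of 4 B lineage markers all were detected in PBS and none in CFA. In PBS, 1 lining-gene member held 0.282% of its UMIs from these B lineage markers, and Scrublet placed no member among the 5% of barcodes with the highest doublet scores. Transcripts of myeloid and antigen-presenting cells moved with the condition. Lyz2, a lysozyme gene of myeloid cells, had 4.54 CPM in PBS and 90.6 CPM in CFA members, beside 30.0 and 393 CPM in Schwann cells, and the kept macrophages numbered 22 in PBS and 613 in CFA. The MHC class II genes Cd74 and H2-Aa had no UMI in PBS members. In CFA members Cd74 had 76.2 CPM with UMIs in 10 cells and H2-Aa 49.4 CPM with UMIs in 5 cells, against 4941 and 2289 CPM in CFA macrophages.

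The gates set how many lining-gene cells were seen. Before the gates on other cell types, 80 PBS and 71 CFA barcodes passed the Prg4 limits, and the limit on Tnmd and Thbs4 removed 38 and 35 of them. Counted over all Prg4-positive barcodes without those gates, lining-gene barcodes numbered 29 of 2667 kept barcodes in PBS (1.09%, 0.729 to 1.56) and 7 of 4014 in CFA (0.174%, 0.0701 to 0.359). The limit on hemoglobin removed 26 otherwise eligible members in PBS, of which 3 held lining genes, and none in CFA. Without it the lining-gene barcodes were 43 of 5845 (0.736%, 0.533 to 0.990) and 8 of 4353 (0.184%, 0.0794 to 0.362), so their share was lower in the CFA library under each of these counts. All members took similar shares of the fibroblast-type barcodes (members, sublining fibroblasts and those with Prg4 between), with overlapping intervals at 10.2% (7.09 to 14.0) in PBS and 11.8% (8.22 to 16.3) in CFA. Members were counted there without the limits on Pdgfra, Dcn and genes of vessel-wall and Schwann cells that the other fibroblast-type barcodes had to meet. Only 23 of 33 PBS and 29 of 32 CFA members met those limits too.

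In PBS joints the lining-gene members were set beside the other members. Of 4003 genes with at least 20 UMIs, 361 (9.02%) were at least 2-fold higher than in the other members and 416 (10.4%) at least 2-fold lower, in each case with an interval that left out 1. Apart from the 6 genes of the split, Bmp6, a bone morphogenetic protein, had 515 CPM in lining-gene members with UMIs in 11 of 11 cells and 3.58 CPM in the other members, which is at least 48.0-fold higher. Rgcc, a regulator of the cell cycle, had 3415 against 208 CPM (16.5-fold, 12.5 to 22.0), and Foxo1, a forkhead transcription factor, had 1292 against 107 CPM (12.03-fold, 8.18 to 18.3). Ptgs1, the constitutive cyclooxygenase, and Aldh1a3, an enzyme of retinoic acid synthesis, were both higher. Ptgs1 had 385 against 32.2 CPM, and Aldh1a3 had 199 CPM against 0, at least 18.5-fold. Fn1, the gene of fibronectin, stood at 22859 CPM in lining-gene members, 8707 CPM in the other members and 2448 CPM in sublining fibroblasts.

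Other genes were lower in the lining-gene members. Mmp2, a gelatinase, had 43.5 against 930 CPM, Col14a1, a fibril-associated collagen, 18.6 against 637 CPM, and Igf1, a growth factor, 37.3 against 741 CPM. Fbln1, the gene of fibulin-1, and C3, the central complement component, had no UMI in the 11 lining-gene members and 311 and 340 CPM in the others. For Mmp2 and Igf1 the other members stood near the 836 and 702 CPM of PBS sublining fibroblasts. Slurp1, a small secreted protein, reached 1018 CPM with UMIs in 3 of 11 lining-gene members, and 162 of its 164 UMIs came from 1 cell.

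Set beside sublining fibroblasts of the same library, the members had 389 of 10814 genes higher (3.6%) and 751 lower (6.94%) in PBS, and 299 of 10476 higher (2.85%) and 991 lower (9.46%) in CFA. Since Prg4 chose both groups, these values describe the members and are no test. Among the genes higher in both libraries, Hbegf and Clic5 had 0 to 3 UMIs in the other members of each library. Hbegf, an EGF receptor ligand, had 1326 against 25.6 CPM in PBS, and Clic5, a chloride channel family protein, 558 against 1.83 CPM. In CFA, Hbegf had 208 against 17.3 CPM and Clic5 65.9 against 1.503 CPM. Procr and Prune2 were high in both kinds of member, and Lbp was so in PBS. Procr, the protein C receptor, was 7.70-fold higher in PBS and 4.15-fold in CFA, Prune2 10.4-fold and 10.96-fold, and Lbp, the lipopolysaccharide binding protein, 4.15-fold and 3.73-fold, all with UMIs in 14 to 23 members of each library. In CFA, Lbp had 4276 CPM in the 2 lining-gene members and 362 CPM in the other members, against 240 CPM in sublining fibroblasts. There, 1 cell held 47.8% of the members' Lbp UMIs. Among the 18 gene lists used to group the genes, contractile and myofibroblast genes were lower, 8 of 17 in PBS and 9 of 17 in CFA with Acta2, Tagln and Myl9 in both, and so were collagen chains, 12 and 11 of 25. Col1a1, a chain of type I collagen, had 3773 against 12714 CPM in PBS and 2037 against 11686 CPM in CFA. A few sublining barcodes held much of this Col1a1, since 10 of them carried 46.6% of its UMIs in PBS and 65.9% in CFA, and the medians per cell were 1937 against 4761 CPM and 1073 against 2122 CPM. Over sublining fibroblasts with under 0.1% of UMIs from osteoblast genes, the sums were 8795 and 4781 CPM and 9 of 24 collagen chains were lower in the members of each library.

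Among genes lower than in sublining fibroblasts in both libraries were Pdzrn4, Gdf10, a BMP-related ligand, and Slit2, a guidance ligand, with 11.4, 6.81 and 20.4 CPM in PBS members against 299, 172 and 179 CPM. The bone genes Bglap, Bglap2 and Ibsp were also lower, but the sublining rule lets in osteoblast-type barcodes. Without sublining barcodes in which these 3 genes took 0.1% of UMIs or more, the PBS ratios turned to 1.34 for Bglap, 11.9 for Bglap2 and 2.85 for Ibsp.

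In the CFA library, 451 of 6503 genes (6.94%) were at least 2-fold higher in the members than in the PBS library and 367 (5.64%) at least 2-fold lower. The counts per list over all members below stand beside these shares. The median log2 ratio over all 6503 genes was -0.0032. Genes of the interferon response and of MHC class I presentation had the largest share higher of the 18 lists. Of the 50 listed, 41 held at least 20 UMIs, and of these 36 were higher (87.8%) and 1 was lower, with a median log2 ratio of 3.18. The other lists with many genes higher were cytokines and chemokines, with 11 of 17 higher and none lower, and acute-phase and complement genes, with 8 of 15 higher and 2 lower.

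**Figure D3:**
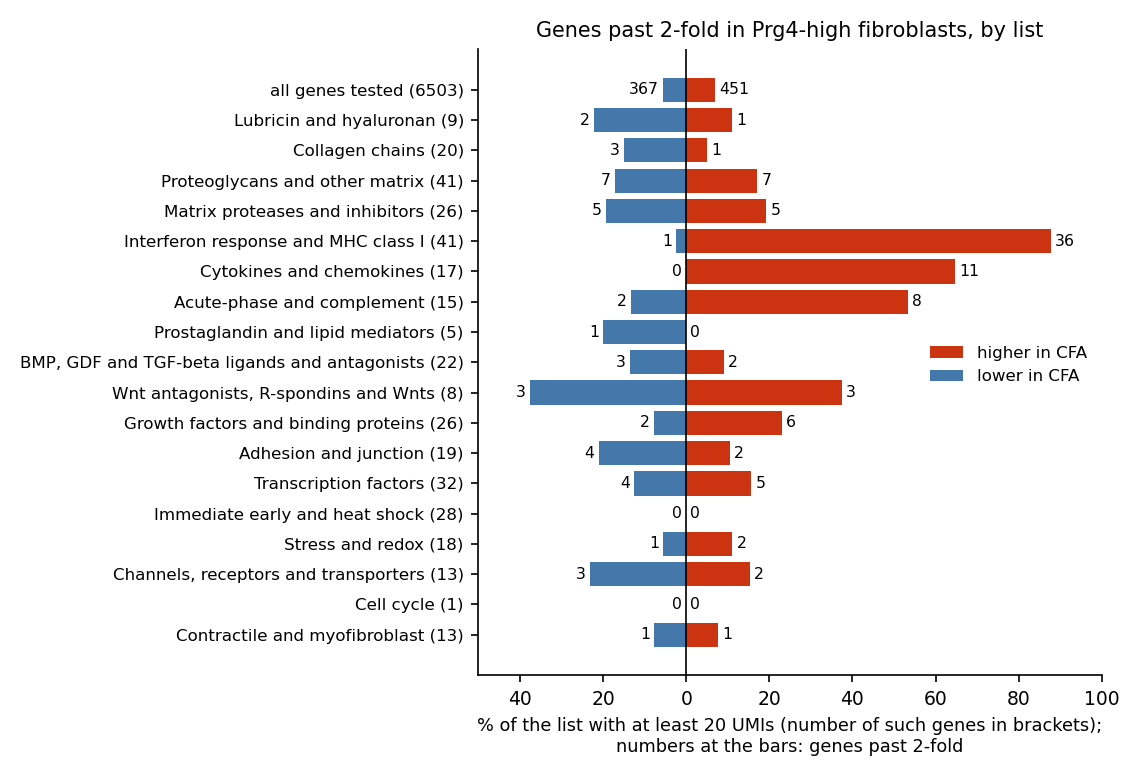
Percentage of the genes of each list that were at least 2-fold higher (red, to the right) or lower (blue, to the left) in CFA than in PBS members, among genes with at least 20 UMIs (their number in brackets), with the number of such genes at each bar. Interferon and MHC class I genes reach 87.8% higher, against 6.94% of all genes tested, while immediate early and heat shock genes have none past 2-fold.

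H2-K1, the heavy chain of an MHC class I molecule, ranged over PBS members from 0 to 3945 CPM per cell with a median of 85.2, and over CFA members from 0 to 8137 CPM with a median of 1585. Over summed UMIs it had 191 CPM in PBS and 2759 CPM in CFA, a ratio of 14.5 (11.6 to 18.3). B2m, the light chain of all class I molecules, ranged from 0 to 1550 CPM with a median of 211 in PBS and from 0 to 10427 CPM with a median of 1457 in CFA. The distributions overlapped, with 3 CFA cells above the highest PBS cell for H2-K1 and 13 for B2m. B2m summed to 279 CPM in PBS and 2724 CPM in CFA (9.76-fold, 8.11 to 11.8). The class I heavy chain genes H2-K1, H2-D1, H2-Q4 and H2-Q7 are near-identical in parts, so reads can be split between them and their separate ratios are uncertain.

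Genes that load class I molecules were higher along with them. Tap1 and Tap2, the peptide transporter, had 4.54 and 9.08 CPM in PBS and 96.8 and 72.1 CPM in CFA. Psmb8, a subunit of the immunoproteasome, had 13.6 and 243 CPM (17.8-fold, 7.96 to 49.6), and Psmb9, another, 2.27 and 128 CPM, at least 18.7-fold higher. Nlrc5, the transactivator of class I genes, rested on 2 PBS and 24 CFA UMIs and was at least 7.26-fold higher. Tapbp, a chaperone of peptide loading, had the smaller ratio of 2.47 (1.73 to 3.59).

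Interferon-induced GTPases showed the same direction. Iigp1 was detected in 5 PBS and 20 CFA members, with a highest cell of 452 CPM in PBS and 4519 CPM in CFA and 14 CFA cells above the highest PBS cell. Its summed level was 29.5 CPM in PBS and 1023 CPM in CFA, a ratio of 34.7 (20.1 to 65.6). Gbp2, a guanylate-binding protein, had 15.9 and 274 CPM (17.2-fold, 8.14 to 43.7), and Igtp 20.4 and 200 CPM (9.78-fold, 4.94 to 22.0). Isg15, a ubiquitin-like modifier, was detected in 1 PBS and 18 CFA members and was at least 27.8-fold higher. Ifit1, an RNA-binding antiviral protein, had no UMI in PBS and 85 in 16 CFA members, at least 25.7-fold higher. Transcription factors of the pathway were measured beside them. Stat2 had 29.5 and 113 CPM (3.84-fold, 2.07 to 7.66) and Irf9 was 4.23-fold higher, while Irf1 stayed under 2-fold at 1.85. Ifi27, a mitochondrial interferon-induced protein, went the other way, with 250 CPM in PBS and 88.5 CPM in CFA (0.355-fold, 0.243 to 0.509).

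Summed over the 50 genes, the list took between 0.0389% and 1.0004% of the UMIs of a PBS member with a median of 0.164%, and between 0.0529% and 3.65% of a CFA member with a median of 0.907%. Of the 32 CFA members, 15 lay above the highest PBS member. The shift was present in both kinds of member. In the other members the median was 0.163% in PBS and 0.837% in CFA, and 37 of their 41 genes were higher, where 7.59% of all 5508 genes tested were higher and 4.7% lower. Over all Prg4-positive lining-gene barcodes, whether or not a gate removed them, the 29 PBS barcodes spanned 0.0358% to 0.425% and the 7 CFA barcodes 1.09% to 3.65%, and these groups did not overlap. Of 33 list genes tested in these barcodes 29 were higher, where 6.57% of all 5633 genes were higher and 6.8% lower. In the 2 CFA lining-gene members H2-K1 reached 6573 CPM, against 1921 CPM in CFA endothelial cells and 2404 CPM in CFA macrophages. The 2 cells held 101 and 334 of these H2-K1 UMIs. Lyz2 had 15.1 CPM in the same 2 members, which is 1 UMI.

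**Figure D4:**
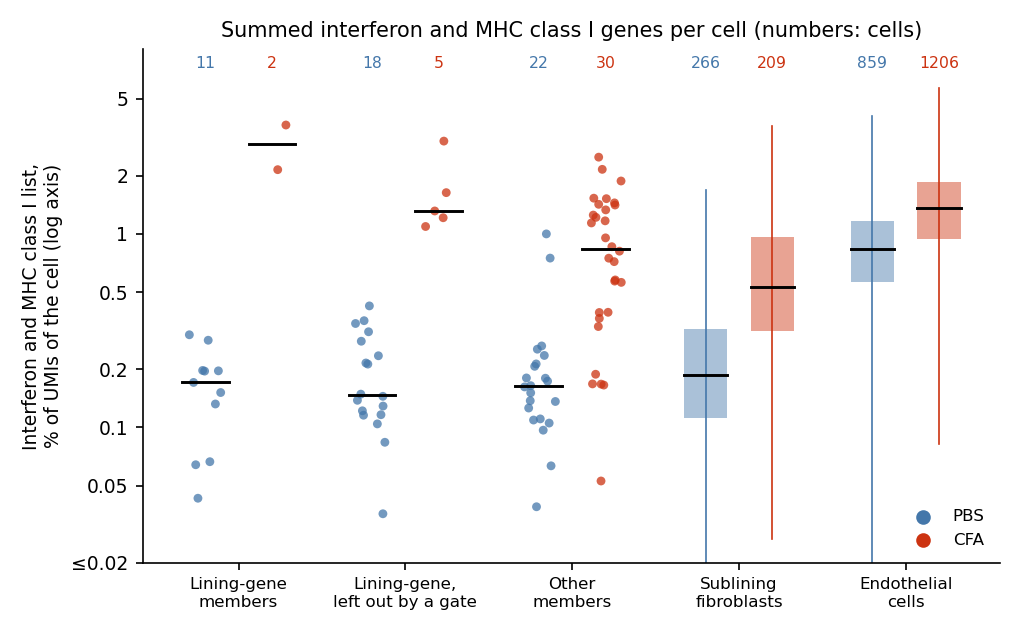
Summed UMIs of the 50 interferon and MHC class I genes as a percentage of each cell's UMIs (log axis) in 5 groups of cells, blue for PBS and red for CFA, with the number of cells above. Points are cells and black lines medians for the 3 groups of Prg4-positive cells, and boxes with whiskers give quartiles, lowest and highest for sublining and endothelial cells. The CFA lining-gene cells lie above every PBS lining-gene cell, and the median of other members goes from 0.163% in PBS to 0.837% in CFA.

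For most of these genes the ratio was larger in the members than in sublining fibroblasts. In sublining fibroblasts 31 of 48 list genes were higher in CFA (5.65% of all 11895 genes tested were higher and 3.61% lower) with a median log2 ratio of 1.42, and in endothelial cells 21 of 50 (6.63% of 14086 genes higher and 5.41% lower) with a median of 0.93. For the 30 genes with at least 3 UMIs in all 4 sums, the CFA to PBS ratio of the members was divided by that of sublining fibroblasts, and the quotient's interval lay above 1 for 21 genes, below 1 for 1 gene and held 1 for 8. The median ratio over these 30 genes was 5.82 in members, 2.03 in sublining fibroblasts and 1.58 in endothelial cells. In tendon cells several of these genes had ratios as large as or larger than those of the members. These tendon cells, 226 in PBS and 149 in CFA, were not free of Prg4-positive cells. They included the 38 PBS and 35 CFA Prg4-positive barcodes that the Tnmd and Thbs4 limit removed, 18 and 5 of them with lining genes. Their Prg4 stood at 4460 CPM in PBS and 2047 CPM in CFA. Cxcl9 was 43.9-fold higher there against 23.2-fold in members, and H2-K1 14.7-fold against 14.5-fold, while H2-Q7 was 29.4-fold and Iigp1 17.1-fold higher in tendon cells against at least 43.2-fold and 34.7-fold in members. The PBS levels differed too. H2-K1 had 191 CPM in PBS members, 285 CPM in PBS sublining fibroblasts and 1010 CPM in PBS endothelial cells, and 15 of 44 list genes were lower and none higher in PBS members than in PBS sublining fibroblasts, against 16 of 48 higher and none lower in CFA. Lyz2 moved with the condition in the members (4.54 and 90.6 CPM) and in sublining fibroblasts (4.57 and 136 CPM), and the part of free myeloid RNA in these ratios was not tested.

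The promoters of 5 genes of this list are shown because they span those without and with an exact match to a short ISRE core. The sequences are the bases before the annotated transcription start in RefSeq (build GRCm38.p6, 250 bases, or 249 for B2m), read on the gene's strand, 5′ to 3′. Capitals mark exact matches to the ISRE core GAAA, any 2 bases, GAAA. An ISRE that departs from this core is not marked, so an unmarked window can still hold one. H2-K1 lies at chr17:34000348-34000597 (- strand), B2m at chr2:122147437-122147685 (+ strand), Bst2 at chr8:71537473-71537722 (- strand), Isg15 at chr4:156200819-156201068 (- strand) and Igtp at chr11:58199306-58199555 (+ strand). The 250 bases of B2m overlapped an exon annotated to B2m itself and are printed up to that exon, and the other windows overlap no exon.
H2-K1: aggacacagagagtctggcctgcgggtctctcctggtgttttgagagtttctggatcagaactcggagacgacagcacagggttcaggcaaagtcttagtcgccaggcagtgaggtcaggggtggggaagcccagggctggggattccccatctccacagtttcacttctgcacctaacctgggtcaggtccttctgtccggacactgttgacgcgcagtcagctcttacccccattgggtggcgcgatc
B2m: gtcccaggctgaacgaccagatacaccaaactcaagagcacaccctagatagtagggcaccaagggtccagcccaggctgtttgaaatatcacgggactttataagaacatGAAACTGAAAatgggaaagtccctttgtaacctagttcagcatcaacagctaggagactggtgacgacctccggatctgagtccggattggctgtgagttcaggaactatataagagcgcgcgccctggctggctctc
Bst2: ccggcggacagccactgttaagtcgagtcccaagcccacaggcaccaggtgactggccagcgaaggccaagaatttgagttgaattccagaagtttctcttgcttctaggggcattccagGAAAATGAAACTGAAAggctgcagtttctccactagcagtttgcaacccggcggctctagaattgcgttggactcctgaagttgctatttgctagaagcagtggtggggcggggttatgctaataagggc
Isg15: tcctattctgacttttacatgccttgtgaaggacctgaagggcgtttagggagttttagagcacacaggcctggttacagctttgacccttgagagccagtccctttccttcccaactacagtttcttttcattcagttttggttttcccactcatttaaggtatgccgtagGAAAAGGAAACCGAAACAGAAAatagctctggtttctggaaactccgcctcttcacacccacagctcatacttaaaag
Igtp: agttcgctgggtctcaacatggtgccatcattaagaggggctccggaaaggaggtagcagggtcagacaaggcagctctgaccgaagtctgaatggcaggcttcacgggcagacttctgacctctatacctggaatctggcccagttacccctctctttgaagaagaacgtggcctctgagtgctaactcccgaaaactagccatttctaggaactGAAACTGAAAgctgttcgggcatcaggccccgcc
The core was counted on both strands of the 250 bases, and overlapping matches such as the 2 in Bst2 and the 3 in Isg15 counted as 1 promoter. Of the 36 list genes higher in CFA members, 28 had a RefSeq entry, and 13 of these (46.4%) held the core, against 936 of 27025 promoters in all (3.46%), 39 of 334 genes higher in CFA (11.7%) and 10 of 277 genes lower (3.61%). Outside the list, 26 of 306 higher genes (8.497%) held it. The list was made of interferon response and MHC class I genes, and its genes that were not higher were not counted. The 46.4% therefore describes the list and does not test the CFA ratios. The gamma-activated sequence (TTC, any 3 bases, GAA) stood in 5 of the 28 (17.9%) and in 8.13% of all promoters. H2-K1 had no match to either in its window. B2m and Igtp had 1 core each, at 139 and 34 bases before the start, and Bst2 and Isg15 had 2 and 3.

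Chemokines and interleukins of the fibroblast were higher in the CFA members. Cxcl12, a chemokine that retains leukocytes and progenitors, ranged from 0 to 1265 CPM per cell in PBS and from 0 to 6121 CPM in CFA, with medians of 0 and 86.8, and its sums of 125 and 527 CPM gave a ratio of 4.22 (3.14 to 5.76). Il6, a driver of the acute-phase response, had 45.4 and 159 CPM (3.49-fold, 2.11 to 6.03), with UMIs in 6 PBS and 12 CFA members and no CFA cell above the highest PBS cell. Cxcl9, an interferon-induced T cell chemokine, had 20.4 CPM from 1 cell in PBS and 474 CPM from 11 cells in CFA. Ccl2 and Ccl7, which recruit monocytes, had 2.27 and 29.5 CPM in PBS and 117 and 157 CPM in CFA, but Ccl2 came from 3 CFA cells. Il6ra and Osmr, receptors for interleukin 6 and oncostatin M, were 3.97-fold and 2.28-fold higher. Across Prg4-positive lining-gene barcodes Osmr ran the other way, with 187 CPM in PBS and 66.7 CPM in CFA.

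Complement genes were among those higher in CFA. C3 ranged from 0 to 2531 CPM per cell with a median of 0 in PBS and from 0 to 5572 CPM with a median of 486 in CFA, and had UMIs in 8 of 33 and 23 of 32 members. Its sums of 216 and 1532 CPM gave a ratio of 7.10 (5.73 to 8.89). Cfb, which forms the alternative pathway convertase with C3, had 9.08 and 237 CPM (26.1-fold, 9.91 to 97.3). C1ra and C1s1, the proteases of the classical pathway, were 5.71-fold and 2.42-fold higher, but C1s1 did not count as higher in the other members alone. Hp and Saa3, acute-phase proteins, had no UMI in PBS members and 142 and 113 CPM in CFA members, at least 20.9-fold and 16.6-fold higher. Sublining fibroblasts moved the same way for C3 (4.66-fold), Hp (24.8-fold) and Saa3 (at least 657-fold), and reached 601 CPM of Saa3 in CFA.

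Pi16, the adventitial marker, ranged from 0 to 663 CPM per cell in PBS and from 0 to 6116 CPM in CFA members with medians of 0, and its sums of 72.6 and 1077 CPM gave 14.8 (10.4 to 21.9), or 10.9 in the other members. Its level in sublining fibroblasts was 621 and 1030 CPM.

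Single genes outside these lists also had large ratios in the CFA members. Pcsk5, a proprotein convertase, ranged from 0 to 484 CPM per cell with a median of 0 in PBS and from 0 to 6116 CPM with a median of 376 in CFA. It had UMIs in 9 PBS and 23 CFA members, and 15 CFA cells lay above the highest PBS cell. Its sums were 34.1 and 1512 CPM (44.4-fold, 26.7 to 79.7), against 2.67-fold in sublining fibroblasts. The quotient of both ratios was 16.6 (9.88 to 27.9). The highest CFA cells, with 233, 106, 98 and 82 Pcsk5 UMIs, also held 207, 147, 4 and 1 UMIs of Pi16. Without a Pi16 UMI the highest CFA member held 37 Pcsk5 UMIs, and the lining-gene members held 25 and 1. PBS members with Pi16 held at most 1 Pcsk5 UMI each. How far the Pcsk5 ratio depends on members with Pi16 was not tested. Chl1, a neural cell adhesion molecule, had 1 UMI in PBS and 247 UMIs in 10 CFA members, at least 74.7-fold higher, and was 31.3-fold higher in sublining fibroblasts and 110-fold in tendon cells. Plac8, a cysteine-rich protein, had 6.81 and 367 CPM (53.8-fold, 18.1 to 263) with UMIs in 15 other members and in neither CFA lining-gene member, and over Prg4-positive lining-gene barcodes it was 0.651-fold. Gm32647, a predicted gene, had no UMI in PBS and 449 CPM in CFA, at least 65.9-fold higher, with all of its UMIs in 4 cells, and it was at least 211-fold higher in tendon cells, at 190 CPM in CFA.

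**Figure D5:**
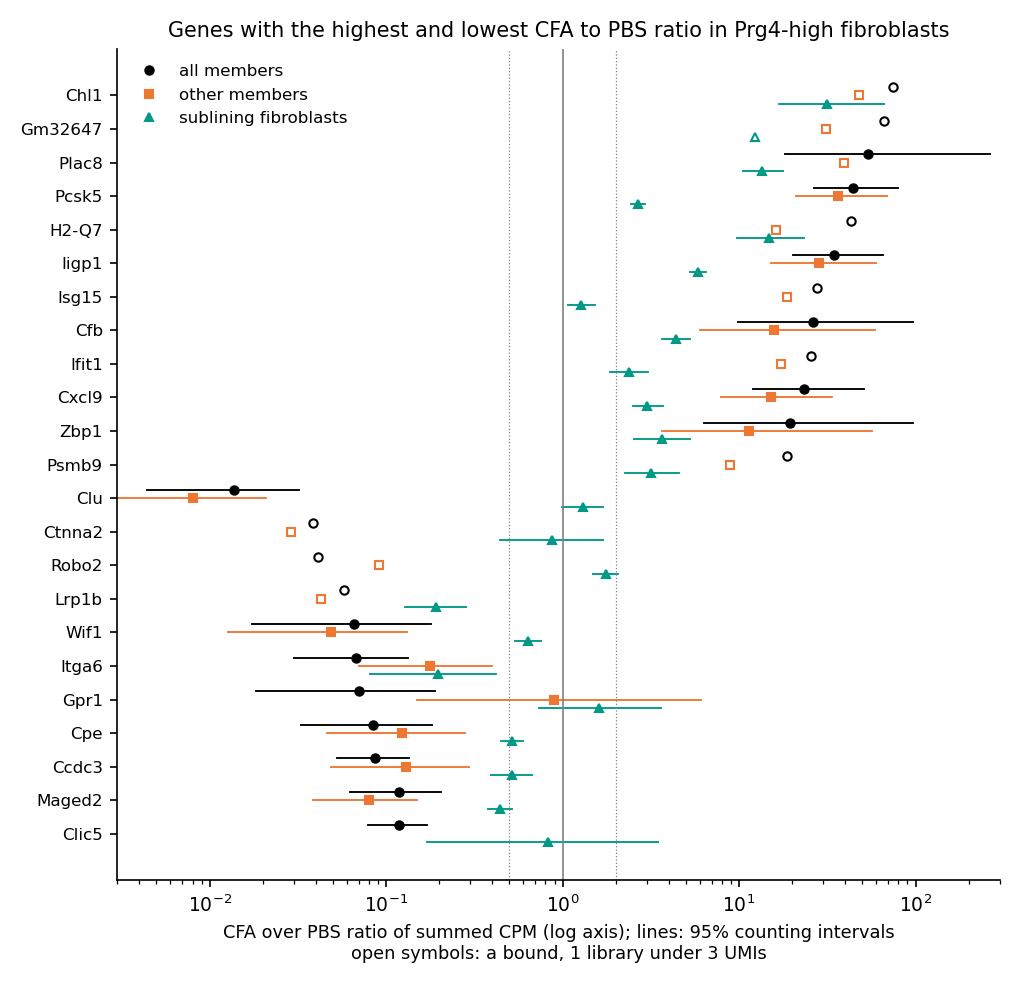
CFA to PBS ratio of summed CPM (log axis) for 23 genes, 12 from the top and 11 from the bottom of the ratios in the Prg4-high fibroblasts, as black circles for all members, orange squares for other members and green triangles for sublining fibroblasts, with lines for 95% counting intervals. Open symbols are bounds, where 1 library had under 3 UMIs. Pcsk5 lies at 44.4 in members and 2.67 in sublining fibroblasts, and Gpr1 at 0.0698 in all members and 0.888 in other members.

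Several of the lowest ratios were found over all members but not, or less, in the other members, and lining-gene members were 11 in PBS and 2 in CFA. Clic5 had 558 CPM in PBS and 65.9 CPM in CFA members, but 0 and 2.38 CPM in the other members, and Gpr1, a chemerin receptor, had 118 and 8.24 CPM over all members and 10.7 and 9.54 CPM over the others (0.888-fold). Other genes were lower among the other members as well. Itga6, an integrin chain that binds laminin, had 275 and 18.5 CPM (0.0675-fold, 0.0301 to 0.132) and 0.178-fold in other members, and across Prg4-positive lining-gene barcodes 468 and 113 CPM. Cpe, a carboxypeptidase that processes prohormones, had 170 and 14.4 CPM (0.0847-fold, 0.0329 to 0.183), and Maged2 245 and 28.8 CPM (0.118-fold, 0.0622 to 0.206) with UMIs in 25 PBS and 10 CFA members. Robo2, a receptor of Slit ligands, had UMIs in 12 PBS members at 150 CPM and none in CFA, at most 0.0412-fold. Clu, Ctnna2, Lrp1b and Wif1 rested on few cells. In PBS, 1 cell held 317 of the 331 Clu UMIs and 69 of the 71 Ctnna2 UMIs came from 1 cell, and Lrp1b and Wif1 had UMIs in 2 and 4 PBS members.

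Lubricin and hyaluronan genes showed no common direction, with 1 of 9 higher and 2 lower. Prg4 itself had 16217 CPM in PBS and 10070 CPM in CFA over all members, 34098 and 42911 CPM in the lining-gene members and 5912 and 4888 CPM in the others. It chose the cells, so these levels are a description. Tnfaip6, which cross-links hyaluronan, ranged from 0 to 5965 CPM per cell with a median of 208 in PBS and from 0 to 7186 CPM with a median of 916 in CFA, summing to 1221 and 2852 CPM (2.34-fold, 2.11 to 2.58). In the other members alone Tnfaip6 had 1489 and 2866 CPM (1.93-fold), which did not pass 2-fold. Has1, a hyaluronan synthase, had 472 and 585 CPM (1.24-fold, 1.03 to 1.49), and Cd44, the hyaluronan receptor, 527 and 999 CPM (1.90-fold, 1.62 to 2.23), both under 2-fold, though Cd44 was 2.76-fold higher in the other members alone. Itih5, an inter-alpha-trypsin inhibitor chain, had a median of 410 CPM per cell in PBS and 72.7 in CFA, and its sums of 611 and 163 CPM gave 0.266 (0.2046 to 0.344). Cemip2, a hyaluronidase, had 74.9 and 26.8 CPM (0.357-fold, 0.173 to 0.697).

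Matrix genes went both ways. Of 20 collagen chains 1 was higher and 3 lower. Col14a1 had a median of 66.8 CPM per cell in PBS and 1185 in CFA, and its sums of 411 and 1028 CPM gave 2.501 (2.11 to 2.98), which was 1.87 in other members. Col22a1, a collagen of tissue junctions, had 336 and 117 CPM and came from the lining-gene members. Col1a1 and Col3a1, the fibrillar collagens, had ratios of 0.540 and 0.798. Of 41 other matrix genes 7 were higher and 7 lower. Vcan, the proteoglycan versican, had 173 and 634 CPM (3.68-fold, 2.85 to 4.79), and Fbn1, the microfibril protein fibrillin-1, 663 and 1643 CPM (2.48-fold, 2.17 to 2.84), though 0.963-fold over Prg4-positive lining-gene barcodes. Fmod, the collagen-binding proteoglycan fibromodulin, had 118 and 2.06 CPM, at most 0.0523-fold, and Postn, the matrix protein periostin, 179 and 68.0 CPM (0.379-fold, 0.244 to 0.576). Without the limit on Tnmd and Thbs4, Fmod was 2.54-fold higher in CFA.

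Among 26 proteases and inhibitors 5 were higher and 5 lower. Adamts5, an aggrecanase, had 154 and 342 CPM (2.21-fold, 1.66 to 2.98), and Timp1, an inhibitor of matrix metalloproteinases, 232 and 467 CPM (2.02-fold, 1.59 to 2.58). Adamts5 also counted as higher in the other members alone, but Timp1 did not. Timp3, another inhibitor, had 872 and 360 CPM (0.413-fold, 0.344 to 0.496), with 51.8% of the PBS UMIs and 56.0% of the CFA UMIs in 1 cell each. Mmp3, a stromelysin, had UMIs in 4 PBS and 5 CFA members, and Mmp13, a collagenase, in 2 and 1.

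Growth factor and Wnt genes gave counts of 6 higher and 2 lower of 26 and 3 higher and 3 lower of 8. Fgf7 and Fgf10, ligands for epithelial FGF receptors, had 24.97 and 13.6 CPM in PBS and 80.3 and 72.1 CPM in CFA. Sfrp1 and Sfrp4, secreted Wnt antagonists, were 2.66-fold and 5.22-fold higher. Sfrp4 had medians of 0 and 83.5 CPM per cell and sums of 90.8 and 474 CPM. Sfrp2, of the same family, went from 513 to 101 CPM, with 78.8% of the PBS UMIs in 1 cell. Rspo2, a Wnt agonist, and Bmp6 were lower over all members, at 0.323 and 0.184, but not among the other members, at 1.33 and at least 3.11.

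Ligands and receptors of the TGF-beta family gave 2 higher and 3 lower of 22. Tgfb1 had 84.0 and 16.5 CPM (0.196-fold, 0.0789 to 0.428) and Tgfbr3, its coreceptor betaglycan, 370 and 752 CPM (2.03-fold, 1.68 to 2.46). Neither Tgfb1 nor Tgfbr3 counted as higher or lower in the other members alone. Of 19 adhesion genes, 2 were higher and 4 lower. Cdh11, the cadherin of the synovial lining, had 86.3 and 20.6 CPM with UMIs in 7 members of each library. Vcam1, a leukocyte adhesion molecule, had 143 and 45.3 CPM with 92.1% of the PBS UMIs in 1 cell, and was 3.36-fold without the cell of each library that held most of its UMIs.

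Of 32 transcription factors 5 were higher and 4 lower. Runx1 had 191 and 496 CPM (2.60-fold, 2.02 to 3.38) and Nfkbiz, a regulator of NF-kB target genes, 145 and 364 CPM (2.51-fold, 1.87 to 3.39). Cebpd, an acute-phase transcription factor, had medians of 71.3 and 578 CPM per cell and sums of 341 and 760 CPM (2.23-fold, 1.84 to 2.72). In the other members alone Runx1 was 3.47-fold higher, while Nfkbiz at 1.90-fold and Cebpd at 1.87-fold did not pass 2-fold. Runx1 was also 2.94-fold higher in sublining fibroblasts, where Cebpd was 1.26-fold. Among 18 stress genes the metallothioneins Mt1 and Mt2 were 2.72-fold and 3.95-fold higher, with Mt2 in 19 of 33 PBS and 30 of 32 CFA members. Gpx1, a glutathione peroxidase, was 0.483-fold, but it did not count as lower in the other members alone. None of 28 immediate early and heat shock genes passed 2-fold, Fos among them at 1830 and 2595 CPM (1.42-fold, 1.30 to 1.55). Only 1 of 17 cell cycle genes held 20 UMIs.

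The remaining lists were small. Of 5 prostaglandin genes 1 was lower, Ptgs1, with 161 and 35.0 CPM, which was 0.814-fold in the other members. Of 13 channels, receptors and transporters 2 were higher, Slc2a1, a glucose transporter, and Adgrd1, an adhesion receptor, at 2.18-fold and 2.11-fold (Adgrd1 was 0.714-fold over Prg4-positive lining-gene barcodes), and 3 were lower, Clic5, Gpr1 and Tspan15, all 3 genes of the split. Of 13 contractile and myofibroblast genes Cthrc1, a secreted collagen triple helix protein, was higher at 2.09-fold (0.320-fold over Prg4-positive lining-gene barcodes) and Postn was lower. Adgrd1 also counted as higher and Postn as lower in the other members alone, while Slc2a1 and Cthrc1 did not count as higher there.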

How the data were processed

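The authors aligned the reads with Cell Ranger 7.0.1 to the mouse build mm10 and filtered barcodes, and the deposited values are raw UMI counts per gene and barcode, without normalization. The labels name another library kit than the study's methods, and the kit was not settled here. The deposited matrices held 7671 PBS and 5709 CFA barcodes with 51146169 and 53517206 UMIs, of which hemoglobin genes took 20.7% and 7.89%. The libraries shared 10 barcode sequences, none of them a member. Members had a median of 14020 (PBS) and 11443 (CFA) UMIs, and 440475 and 485608 UMIs in all.

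Counts were summed over the cells of a group and divided by their total (CPM). A ratio carries an exact conditional binomial interval, a share an exact Clopper-Pearson interval. Genes with at least 20 UMIs over both sums were compared, and a gene counted as higher or lower at a ratio of at least 2 or at most 0.5 with an interval without 1. A sum under 3 UMIs was set to that floor of 3 UMIs per sum, and the ratio was then given as a bound. A quotient of ratios carries a log-scale counting interval. Genes were named as past that rule or at 100 CPM in the 18 lists, or as the 12 highest and 12 lowest ratios between libraries and the 15 highest and 10 lowest against sublining fibroblasts, and genes from the comparison of lining-gene with other members and the list of promoters were chosen after their values were seen. Of the 305 genes past the rule with at least 100 CPM, 24 were left out of that naming because the level in members was under 0.2 of that in another cell class, and 5 as mitochondrial, ribosomal protein, hemoglobin or immunoglobulin genes. The members and the gene lists were chosen with earlier results of these data known. Some genes that the rule named are not reported here. The ratio step was run on simulated counts that varied by counting error only, without differences between cells. It therefore says nothing on the intervals of genes whose UMIs sit in few cells. Python 3.11.15, numpy 2.4.6, scipy 1.17.1, pandas 2.3.3, scanpy 1.11.5 (Scrublet) and matplotlib 3.10.9 were used, with a random seed of 1.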

Additional observations from a re-analysis of the deposited data

Results flagged for a closer look

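Among the genes past 2-fold in both the members and the sublining fibroblasts, 3 ran in opposite directions between PBS and CFA, and the difference was not tested, since each condition has 1 library. Htra4, a serine protease, had a CFA to PBS ratio of 0.405 (0.275 to 0.589) in members and 2.91 (1.39 to 6.53) in sublining fibroblasts, where it had only 3.35 and 9.77 CPM. It is 1 of the 6 lining genes, and it stood at 553 and 544 CPM in the 11 PBS and 2 CFA lining-gene members and at 17.9 and 14.3 CPM in the other members. Sema5a, a semaphorin, had 159 and 63.8 CPM in members, a ratio of 0.402 (0.254 to 0.621), and 84.7 and 194 CPM in sublining fibroblasts (2.29, 1.98 to 2.66). Lgr5, a receptor for R-spondins, had a ratio of 3.73 (2.17 to 6.77) in members and 0.111 (0.0633 to 0.182) in sublining fibroblasts, and 67 of the 70 CFA UMIs of the members came from 1 cell.

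Prg4-positive barcodes with at least 3 of the 6 lining genes also stood outside the members, 18 in PBS and 5 in CFA, removed by a gate on other cell types. They held 496 and 99 UMIs of Thbs4, a tendon gene, but 13 and 0 of Tnmd, and the 18 PBS barcodes carried 51.6% of the Prg4 UMIs of all kept PBS barcodes, against 23.1% for the 11 lining-gene members.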

How the results depend on the processing

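Of the counts and shares recomputed under the alternatives, 134 kept within 1.5 times or 1 interval of their value and 34 did not. A change of direction was not scored for them. The members' share was lower in PBS than in CFA as reported, at 10.2% and 11.8% of fibroblast-type barcodes. This order turned around at 0.5% Prg4, over all kept barcodes and outside the blood lineages, with the shares given below. The interferon and MHC class I count stayed between 25 of 30 and 39 of 46 genes, apart from cells thinned to 2000 UMIs each, where 6 of 9 genes with 20 UMIs were higher. With that thinning 78 genes were higher and 77 lower in CFA members, and against sublining fibroblasts 213 and 152 in PBS and 147 and 211 in CFA, fewer genes being tested. At least 50 UMIs gave 222 higher and 160 lower in CFA members, and at least 5 UMIs gave 578 lower. A ratio of 1.5 gave 599 lower, and 712 (PBS) and 635 (CFA) genes above sublining fibroblasts. A ratio of 3 gave 223 higher and 159 lower, and against sublining fibroblasts 172 and 357 in PBS and 86 and 543 in CFA. With Prg4 of at least 0.5% there were 18 PBS and 13 CFA members (5.59% and 4.83% of fibroblast-type barcodes), and at 0.1% the PBS share was 15.03%. Without the hemoglobin limit there were 59 PBS members (14.1%). Of all kept barcodes the members took 1.24% in PBS and 0.797% in CFA, and outside the blood lineages 1.46% and 1.25%.

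The alternatives on the Tnmd and Thbs4 limit, the other members, the Prg4-positive lining-gene barcodes, the bone genes and the cell with most UMIs were chosen after seeing the data. Without the limit on Tnmd and Thbs4 there were 64 members in each library (14.6% and 17.4%). Single genes changed direction in 34 cases, and the cause was not tested. Where a sum held under 3 UMIs the value is a bound. Cxcl14 was 0.832 at 0.1% Prg4, and Sfrp2 12.4 and Vcam1 6.00 at 0.5%. Thinning gave Mmp23 0.773 and Nr4a2 0.619. In the other members Bmp6 was 3.11 and Rspo2 1.33, and against sublining fibroblasts Slurp1 was 0.446 in PBS, Hbegf 0.419 in PBS and 0.414 in CFA, and Col22a1 0.238 in CFA. Without the Tnmd and Thbs4 limit Fmod was 2.54, Osmr 0.932 and Vcam1 1.20. Over Prg4-positive lining-gene barcodes Plac8 was 0.651, Tnc 0.533, Efemp1 0.777, Fbn1 0.963, Cilp 0.420, Thbs1 2.61, Osmr 0.356, Ccn1 0.897, Vcam1 39.2, Icam1 1.12, Foxp2 0.494, Nr4a2 0.546, Epas1 1.37, Adgrd1 0.714 and Cthrc1 0.320. Without sublining barcodes rich in bone genes Bglap was 1.34, Ibsp 2.85 and Bglap2 11.9 in PBS, and Ibsp 1.04 in CFA. Without the cell of each library that held most of its UMIs Vcam1 was 3.36. No paired analysis was possible because each condition has 1 library and no result comes from a test. The 2 CFA lining-gene members limit what can be read of that group.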

Other observations

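Prg4-positive barcodes with at least 3 of the 6 lining genes, those that the gates removed included, allowed further genes to be compared. In the 29 PBS and 7 CFA barcodes, 370 of 5633 genes (6.57%) were at least 2-fold higher and 383 (6.8%) lower in CFA, and 29 of 33 interferon and MHC class I genes were higher with a median log2 ratio of 3.69, against -0.10 over all genes tested. Of 23 matrix proteases and inhibitors 7 were higher and 2 lower there, of 16 contractile and myofibroblast genes 5 were higher and 3 lower, and of 25 immediate early and heat shock genes 4 were higher and 1 lower. Hp, the acute-phase protein haptoglobin, had 56.9 CPM in PBS and 3168 CPM in CFA there, and Timp1 385 and 1751 CPM. Their Prg4 stood at 32623 and 25443 CPM and Sox5, a transcription factor, at 2621 and 3953 CPM, both under 2-fold. Mmp3, a stromelysin, had no UMI in PBS and 529 CPM in CFA, and Vcam1, an adhesion molecule, had 5.51 and 216 CPM. These sums rest on 7 CFA barcodes.

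Among other members of the CFA library, those with a Pi16 UMI had a median of 1.17% of UMIs from the interferon and MHC class I list (15 cells, 0.0529% to 2.49%) and those without it 0.815% (15 cells, 0.168% to 1.53%). In PBS these medians were 0.168% over 6 cells and 0.151% over 16 cells.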
